A study of Mus musculus with 8 samples.

Results

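The Ikaros zinc finger family comprises 5 mouse genes, Ikzf1 to Ikzf5, and the accessible chromatin at these genes was followed after Ikaros was brought into the nucleus of pre-B cells. Members were all accessible regions in which a peak of any of the 8 peak lists had its summit inside 1 of the 5 genes or within 20 kb of it (GRCm38, GENCODE M21). The rule used position only and found 85 of 174718 regions, which held 425 of 767727 peaks. Ikzf1 had 37 regions, Ikzf3 and Ikzf4 had 19 each, Ikzf5 had 9 and Ikzf2 had 1. A window of 20 kb also takes in neighbouring genes, which are named wherever a region lies at their start site.

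Chromatin accessibility was measured by ATAC-seq, which marks open DNA by inserting sequencing adapters with a transposase, in B3 cells, a line of mouse pre-B cells. All 8 libraries came from B3 cells transduced with Ikaros-ERt2, in which Ikaros is joined to a ligand-binding domain of the estrogen receptor and enters the nucleus when 4-hydroxytamoxifen (4-OHT) is added. The 0 h group had no treatment, and the other groups were exposed to 4-OHT at 500 nM over 30 min, 1 h or 2 h. Each of the 4 groups had 2 libraries. Since the cells at 0 h received no treatment, effects of 4-OHT or its solvent and of nuclear Ikaros cannot be told apart. Per the study's methods, constructs were brought into B3 cells with an MSCV retroviral vector that also encodes GFP, and GFP-positive cells were sorted, so the line is a sorted population and not stated to be 1 clone.

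Ikaros family proteins carry a set of zinc fingers near the amino terminus that bind DNA, and a second set at the carboxyl terminus that joins family members into dimers. In Ikaros the first set binds DNA words such as GGGA and GGAA. Ikaros (Ikzf1) and Aiolos (Ikzf3) promote the exit of pre-B cells from division and their differentiation, Helios (Ikzf2) and Eos (Ikzf4) are best known from regulatory T cells, and Pegasus (Ikzf5) is expressed in many tissues. Several of these proteins recruit the NuRD deacetylase complex, and the family includes the targets that the cereblon ubiquitin ligase destroys in the presence of thalidomide analogues.

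Peak lists held 85903 to 103897 peaks, and the depth of the libraries, read as the background in fragments per base, was 0.389 and 0.26 at 0 h and 0.305 to 0.405 after 4-OHT. Summits of middling peaks held 11 to 14 fragments (medians of the lists), so a single value of a weak region is imprecise. Strength is given in 3 ways. The percentile is the rank of a region among all peaks of its own list by the fold over local background. The score used for tests is the rank within the 47875 regions found in every list, expressed as a normal score. Fragments over background are the fragments at the summit divided by the background of the library. Promoters of 7 to 8 of 8 pre-B marker genes held a peak in each list. Promoters of T cell markers held a peak for 0 to 1 of 6 genes at 0 h and for 2 of 6 in each library after 1 h and 2 h, those of myeloid markers for 0 to 1 of 6 and those of erythroid markers for 0 to 1 of 5.

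The 5 loci differed widely in how many regions they held. Ikzf1 had 28.9 regions per 100 kb of window and Ikzf4 had 34.5, against a median of 11.9 over 21938 protein-coding genes (quartiles 4.59 and 19.5). Ikzf3 had 15.7 and Ikzf5 had 14.6. Ikzf2, the longest of the genes at 156032 bp, had 0.51. Its only region lay between genes, 1940 bp before the start site (chr1:69689185-69689267), with 6 fragments in 1 library after 1 h, 7 in 1 library after 2 h and no peak in the other 6 lists. A peak was thus found in all 8 lists for 20 of the regions of Ikzf1, 5 of Ikzf3, 3 of Ikzf4, 2 of Ikzf5 and 0 of Ikzf2, which makes 30 members that could be tested.

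**Figure D1:**
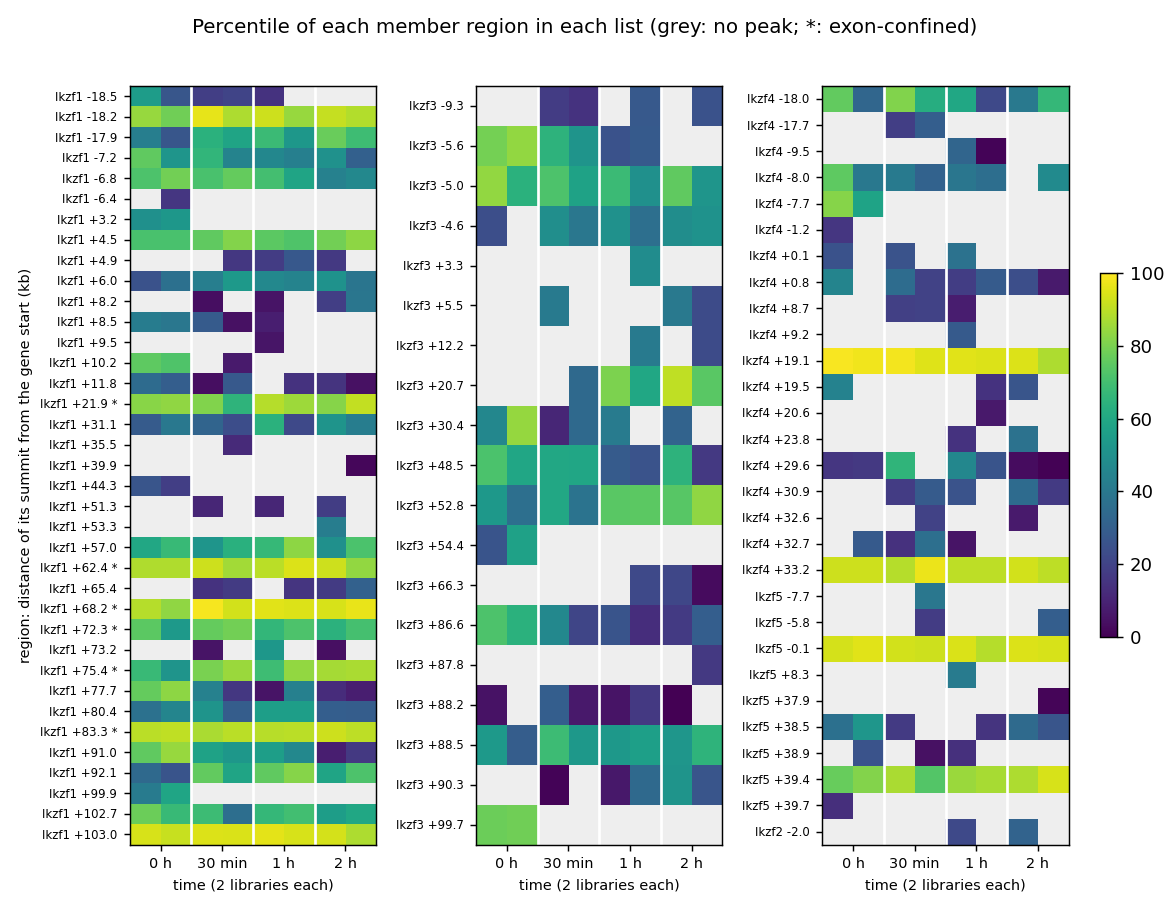
Percentile of each of the 85 member regions (rows, labelled by gene and by the distance of the summit from the gene's start in kb) in each of the 8 peak lists (columns, 2 per time point). Colour gives the percentile from 0 to 100, grey cells have no peak and stars mark regions confined to a coding exon of Ikzf1. Most rows with a peak in every list belong to Ikzf1, and Ikzf2 fills a single row.

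Start sites of the family were unequally accessible. Ikzf5 had the highest by percentile, in a region of 464 bp (chr7:131410376-131410839) that also holds the start of Acadsb, an acyl-CoA dehydrogenase gene transcribed in the opposite direction. Its percentile was 93.5 and 95.5 at 0 h, 93.1 and 92.4 after 30 min, 94.3 and 89.0 after 1 h, and 94.7 and 94.1 after 2 h. The region kept a high rank in all libraries, and the groups overlapped (score shift after 2 h −0.10 ± 0.26 SE, limma adjusted p = 0.825). Ikzf4 had a weak region over its start site (chr10:128645754-128645968), with 7 or 8 fragments in 3 lists and no peak after 2 h, and another 426 bp inside the gene (chr10:128645104-128645400), with 5 to 10 fragments in 7 lists. No list had a peak at the start site of Ikzf2, Ikzf3 or the first GENCODE start site of Ikzf1 (chr11:11685925). The nearest summits around that last site lay 6.4 kb before and 3.2 kb after it.

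Ikzf1 has a second start in RefSeq, at chr11:11690177, which no basic GENCODE transcript uses. It lay inside a region present in all 8 lists (chr11:11689954-11690621, an intron in GENCODE). The percentile of this region was 71.3 and 71.4 at 0 h, 75.6 and 81.5 after 30 min, 74.9 and 72.6 after 1 h, and 78.6 and 83.1 after 2 h. Its percentile was higher in each treated library than in both 0 h libraries, by small steps. The score shift was −0.07 ± 0.27 SE after 1 h and 0.25 ± 0.27 SE after 2 h (limma adjusted p = 0.886 and 0.555). With ranks taken among all peaks of a list, the median shift over all tested regions after 2 h was 0.17, against 0.06 on the score used for tests. Fragments of the region were 58 and 41 at 0 h and 42 and 42 after 2 h. The direction therefore depended on the scale. On fragments over background this region, at 149 and 158 at 0 h, was not weaker than that of Ikzf5, at 129 and 154. The local background around it was 7.22 times that of the libraries, against a median of 2.46 over all tested regions. The promoters of Ikzf5 and of the second start of Ikzf1 are shown because they were the only start sites of the family with a peak in all 8 lists (RefSeq, GRCm38, 250 bases before to 50 after the start, in the direction of the gene). Capitals mark the Ikaros core words, which are GGAA and GGGA or their reverse complements.
Ikzf5, chr7:131410429-131410728, minus strand: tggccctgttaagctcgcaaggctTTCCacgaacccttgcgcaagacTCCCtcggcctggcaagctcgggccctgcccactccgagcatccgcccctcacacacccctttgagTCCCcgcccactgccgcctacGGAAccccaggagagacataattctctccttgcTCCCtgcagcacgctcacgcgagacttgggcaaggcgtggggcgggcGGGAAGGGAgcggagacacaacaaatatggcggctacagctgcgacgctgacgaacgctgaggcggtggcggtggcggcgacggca
Ikzf1, chr11:11689927-11690226, plus strand: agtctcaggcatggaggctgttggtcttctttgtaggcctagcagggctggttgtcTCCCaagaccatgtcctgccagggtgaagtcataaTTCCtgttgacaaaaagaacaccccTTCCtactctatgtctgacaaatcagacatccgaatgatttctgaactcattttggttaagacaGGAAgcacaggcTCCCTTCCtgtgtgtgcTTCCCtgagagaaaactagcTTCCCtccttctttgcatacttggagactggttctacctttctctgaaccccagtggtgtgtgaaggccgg
The Ikzf5 promoter held 8 core words, as many or more than which were found in 45.5% of 32851 promoters of the same length, and the Ikzf1 promoter held 10, which 25.5% of promoters reached. A match to these letters is a description of the sequence and does not show that Ikaros was bound there.

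Regions confined to coding exons of Ikzf1 were kept apart, because fragments of the transduced Ikaros-ERt2 sequence could align to the same bases as those of the endogenous gene. Such a region had its summit in a coding exon, at least 80% of its length in coding exons and no start site of the gene within 1 kb. There were 6, 1 in each of exons 3, 5, 6, 7, 8 and 9 of the transcript that begins at chr11:11685925, and all 6 had a peak in all 8 lists. Of the 8 coding exons, the only 2 without one were exon 2 with 40 coding bp and exon 4 with 60 bp. The regions followed the exons closely: their ends lay from 1 bp outside to 18 bp inside the ends of the coding part. For comparison with other genes, exon-confined regions were counted only if they were in all 8 lists and over 1 kb from any start site. Of 10109 genes with at least 5 coding exons of 100 bp or more, 9994 had such a region in no exon of that length and 114 in 1. Ikzf1, with such a region in 6 of 6 exons of that length, was the other gene. Regions in fewer lists were not counted. Exon 6 encodes part of the DNA-binding zinc fingers and is shown to illustrate this fit, with capitals for the bases that the region covered.
Ikzf1 exon 6, chr11:11754007-11754174, plus strand: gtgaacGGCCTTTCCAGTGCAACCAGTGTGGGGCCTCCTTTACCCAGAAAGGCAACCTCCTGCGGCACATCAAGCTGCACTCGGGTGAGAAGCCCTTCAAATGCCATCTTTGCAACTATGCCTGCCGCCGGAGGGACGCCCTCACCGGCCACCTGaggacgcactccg
The region began 6 bp inside the exon and ended 13 bp before its end, with no base in either intron.

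Relative to the depth of the library, the exon-confined regions had more signal after 4-OHT than before it. Summed over the 6 regions, fragments over background were 694 and 681 at 0 h, 810 and 882 after 30 min, 847 and 942 after 1 h, and 1062 and 972 after 2 h. Both libraries of each later time point lay above both at 0 h (means 687 ± 9.4 and 1017 ± 64.1, SD, n = 2 each, at 0 h and 2 h), and with 2 libraries against 2 no permutation test could pass 0.05, so this sum is a description. The largest region was in exon 9 (chr11:11768893-11769560), which encodes the dimerization fingers. It had 119 and 81 fragments at 0 h, 146 and 132 after 30 min, 159 and 132 after 1 h, and 182 and 143 after 2 h. Divided by the background these were 306 and 312 at 0 h and 540 and 451 after 2 h. Exon 6 (chr11:11754013-11754161) had 36 and 21 fragments at 0 h, 61 and 38 after 30 min, 48 and 43 after 1 h, and 52 and 49 after 2 h, and its groups at 0 h and 2 h did not overlap.

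None of the 6 passed the test on ranks or on fragments. The nearest by fragments was exon 6 (log2 change after 2 h 0.84 ± 0.23 SE, limma adjusted p = 0.0165), followed by exon 9 (0.68 ± 0.23, adjusted p = 0.0428) and exon 8 (chr11:11761218-11761342, 0.66 ± 0.27, adjusted p = 0.0885). Exons 3, 5 and 7 (chr11:11707788-11707895, chr11:11748311-11748560 and chr11:11758194-11758310) had log2 changes of 0.12, 0.15 and 0.33. On this scale the median over all tested regions was 0.22, which exons 3 and 5 did not reach. On ranks the shifts of exons 5, 7 and 9 after 2 h were −0.07, −0.11 and −0.02, so that their signs differed between the scales. Those of exons 3, 6 and 8 were 0.08, 0.635 and 0.97. By percentile the 6 regions averaged 78.6 ± 4.74 at 0 h, 84.4 ± 2.1 after 30 min, 84.9 ± 2.57 after 1 h and 85.9 ± 0.89 after 2 h, while the other 24 tested members averaged 65.2 ± 3.64 and 59.8 ± 0.7 at 0 h and 2 h (SD, n = 2 each). The fold behind the percentile has the local background in its denominator, and that of exon 9 was itself 19.1 times the background of the libraries. The species of the receptor in the ERt2 part was not stated. Esr1, a mouse estrogen receptor gene, had 2 regions confined to coding exons. The first (chr10:4997824-4997953) had 42 and 21 fragments at 0 h, 41 and 38 after 30 min, 49 and 32 after 1 h, and 41 and 42 after 2 h. The second (chr10:4939230-4939310) had 10 to 15 fragments in 5 lists. The share of fragments that came from the construct was not tested.

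**Figure D2:**
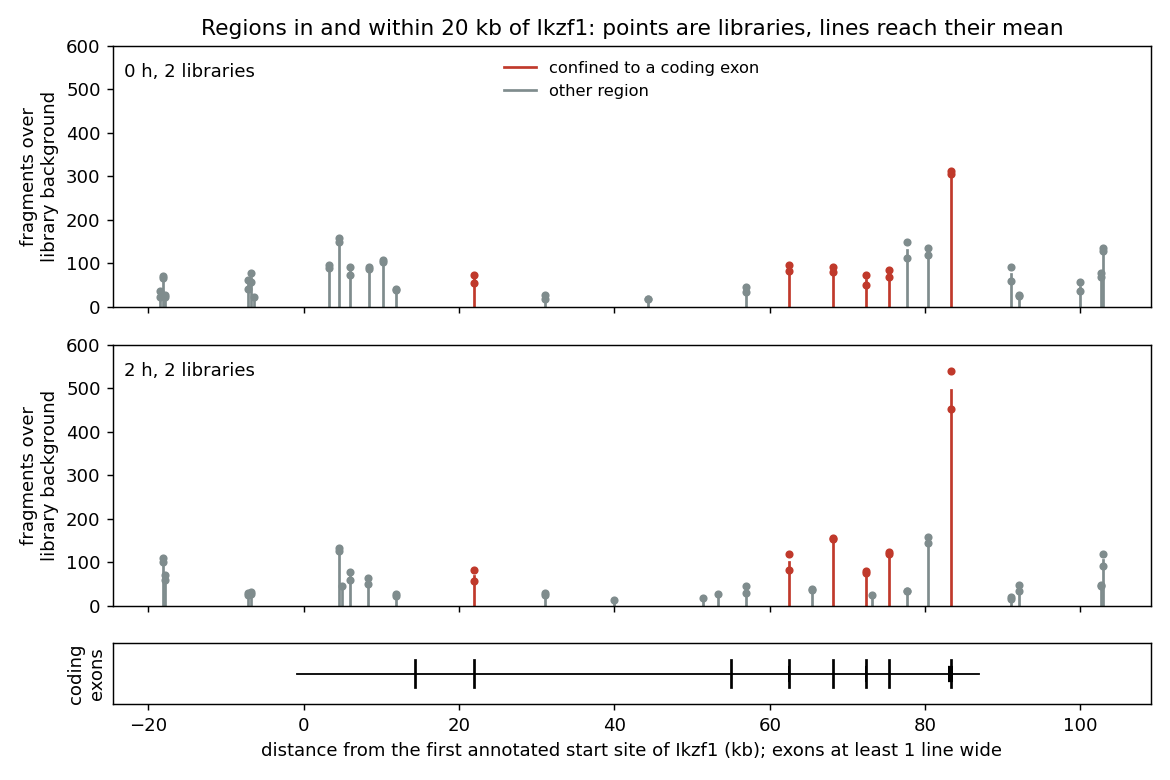
Fragments over library background (y axis, linear from 0) of each region in and around Ikzf1 against its distance from the first annotated start site (x axis, kb), at 0 h (top) and 2 h (middle), with the coding exons below. Points are single libraries and lines reach their mean, and the exon-confined regions (red) sit on the exons, with exon 9 at 306 and 312 at 0 h and 540 and 451 after 2 h.

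**Figure D3:**
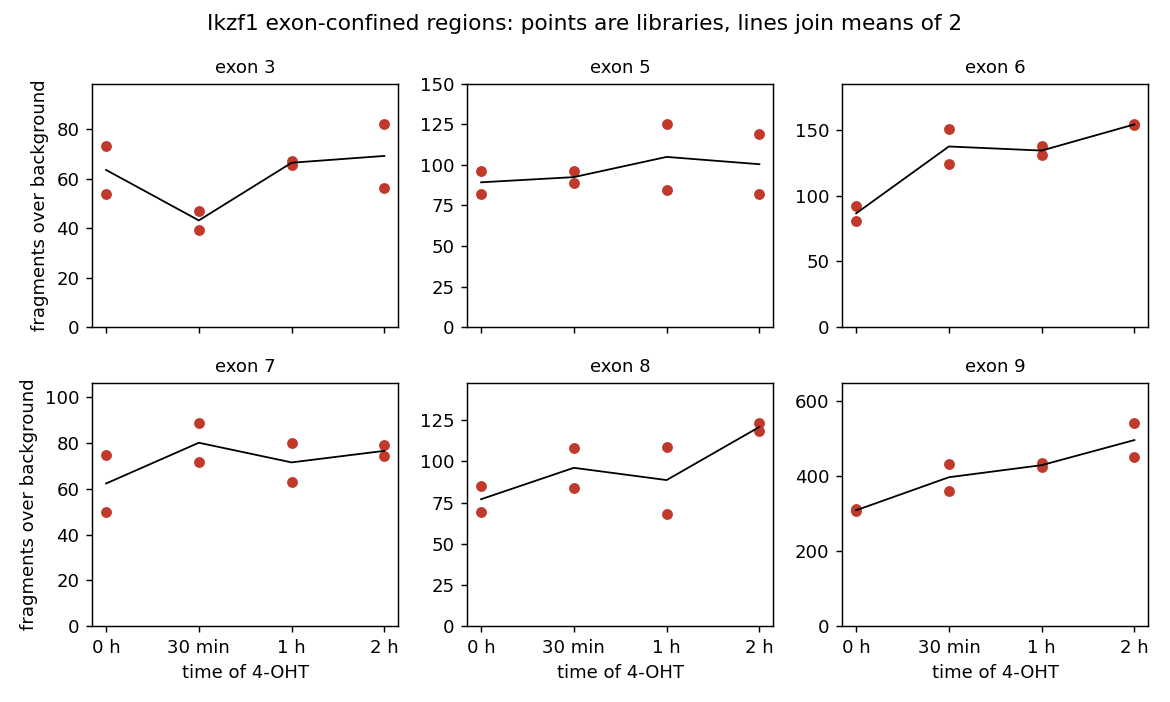
Fragments over library background (y axis, from 0, with its own scale in each panel) of the 6 exon-confined regions of Ikzf1 at each time of 4-OHT (x axis). Points are libraries and lines join the means of 2, and in exons 6, 8 and 9 both libraries after 2 h lay above both at 0 h.

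The test on ranks asked which family regions gained or lost strength relative to the rest of the genome. Among the 30 tested members, 3 were lower after 2 h than at 0 h and 0 were higher (limma on normal scores, adjusted p under 0.01). Over all 47875 regions the same calls took 4.71% lower and 2.28% higher. After 1 h 1 member was lower, with 2.51% of all regions lower, and 0 were higher, with 1.1% of all higher. After 30 min 0 members were called in either direction, and 0% of all regions were, while the unadjusted p was under 0.05 for 4 members with a lower score and 4 with a higher one, beside 9.94% and 9.51% of all regions. Without the second 0 h library or the first 2 h library, 0 members were lower after 2 h. Counts this small among 30 members do not separate the family from the background. In all, 9 of the 30 had both 2 h scores below both 0 h scores, where 29.8% of all regions did, and 8 had both above, where 32.8% did. The 3 comparisons share the 0 h libraries. The labels do not say that libraries were separate cultures, so p-values measure the spread between these libraries, which may be technical.

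The share of lower calls also depended on the scale. Lower regions were 67.4% of all calls after 2 h on the main scale, 52.1% with ranks taken over whole lists, 47.6% on fragments over background and 63.3% on the same fragments centred on each library. On fragments over background the same 3 members were lower after 2 h together with 1 more (chr11:11678993-11679246, limma adjusted p = 0.00669), and 1 was higher (chr11:11667963-11668189, adjusted p = 0.00215). Both lie before Ikzf1, in an intron of the predicted gene Gm11999.

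The strongest fall within a gene of the family was in intron 8 of Ikzf1 (chr11:11763177-11763701), between the last coding exons. Its percentile was 76.4 and 83.0 at 0 h, 44.1 and 16.3 after 30 min, 5.2 and 43.4 after 1 h, and 12.7 and 8.58 after 2 h. It had 44 and 39 fragments at 0 h and 11 and 11 after 2 h. All 6 treated libraries lay below both untreated ones, with a wide spread after 30 min and 1 h. The score shift was −2.56 ± 0.47 (SE) after 2 h (limma adjusted p = 0.00563) and −2.25 ± 0.47 after 1 h (adjusted p = 0.0136). Leaving out either 0 h or either 2 h library raised the adjusted p after 2 h to between 0.0236 and 0.0392, and it was 0.0144 with ranks taken over whole lists. The neighbouring exon 8 and exon 9 regions, 1.8 kb before and 5.2 kb after it, had more fragments over background in both 2 h libraries than in both 0 h libraries.

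The second lower region lay 3.9 kb past the 3′ end of Ikzf1, between genes (chr11:11776833-11777059). Its percentile was 75.6 and 84.6 at 0 h, 57.5 and 52.8 after 30 min, 55.9 and 46.9 after 1 h, and 8.35 and 16.5 after 2 h. The 0 h libraries, the 4 libraries of the middle times and the 2 h libraries did not overlap. Fragments were 23 and 24 at 0 h and 5 and 6 after 2 h. The score shift after 2 h was −2.49 ± 0.28 (SE, limma adjusted p = 0.00118). It was the only 1 of the 3 that stayed past the threshold with ranks taken over whole lists, although without the second 0 h library its adjusted p was 0.0103 and without the first 2 h library 0.0105. The next region (chr11:11777920-11778077) had shifts of the opposite sign, with percentiles of 34.0 and 25.9 at 0 h, 75.8 and 58.3 after 30 min, 75.4 and 81.8 after 1 h, and 58.5 and 72.2 after 2 h, without passing the threshold (limma adjusted p = 0.0141 after 1 h and 0.0576 after 2 h).

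The third lay 5.2 kb past the 3′ end of Ikzf3 (chr11:98459188-98459720) and was lower after 1 h and 2 h. Its percentile was 71.9 and 63.9 at 0 h, 46.5 and 20.7 after 30 min, 25.8 and 13.1 after 1 h, and 17.1 and 29.8 after 2 h. Fragments were 32 and 20 at 0 h, and 9 to 15 in the 6 treated libraries. The score shift was −1.89 ± 0.31 after 1 h (limma adjusted p = 0.00552) and −1.61 ± 0.31 after 2 h (adjusted p = 0.00711). After 30 min its adjusted p was 0.0487. The call after 2 h was lost without any single library of 0 h, 1 h or 2 h, with adjusted p-values up to 0.0559 (without the first 2 h library), and that after 1 h without any single library of 0 h or 1 h (0.0259 to 0.0397). With regions in at least 6 lists both calls were lost (limma adjusted p = 0.0103 and 0.0105), with a mean trend and robust prior that after 2 h was (0.0156), and with ranks taken over whole lists both were (0.0227 and 0.0242).

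The sequences of the 3 lower regions are shown with core words in capitals (200 bases around the summit, GRCm38, plus strand).
Ikzf1 intron 8, chr11:11763528-11763727: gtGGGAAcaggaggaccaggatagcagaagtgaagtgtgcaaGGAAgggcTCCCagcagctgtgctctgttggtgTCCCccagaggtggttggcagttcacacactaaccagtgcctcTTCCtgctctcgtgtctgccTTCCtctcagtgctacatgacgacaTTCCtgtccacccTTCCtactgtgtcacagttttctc
Downstream of Ikzf1, chr11:11776825-11777024: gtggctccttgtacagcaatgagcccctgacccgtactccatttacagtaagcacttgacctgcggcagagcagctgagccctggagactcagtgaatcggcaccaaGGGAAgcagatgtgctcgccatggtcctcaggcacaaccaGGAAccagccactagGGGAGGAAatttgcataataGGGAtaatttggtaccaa
Downstream of Ikzf3, chr11:98459334-98459533: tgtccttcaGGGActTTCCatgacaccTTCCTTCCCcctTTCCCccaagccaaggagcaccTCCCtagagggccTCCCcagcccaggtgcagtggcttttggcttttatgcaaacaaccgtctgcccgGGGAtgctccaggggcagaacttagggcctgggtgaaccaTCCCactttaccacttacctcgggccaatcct
They held 9, 6 and 11 core words, which 4.96%, 27.1% and 1.15% of all tested regions reached or exceeded. Both strands were searched, and overlapping words, such as the pair that GGGAA holds, were counted separately.

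Inside Ikzf3 itself only 2 intron regions were tested, and their shifts after 2 h differed in direction. One (chr11:98493095-98493380) had percentiles of 53.1 and 36.7 at 0 h, 59.9 and 38.3 after 30 min, 74.4 and 74.7 after 1 h, and 74.1 and 83.3 after 2 h (limma adjusted p = 0.0408 after 2 h). The other (chr11:98497409-98497720) had 71.5 and 59.1 at 0 h, 59.98 and 59.23 after 30 min, 28.5 and 25.6 after 1 h, and 64.5 and 16.5 after 2 h (adjusted p = 0.039 after 1 h and 0.118 after 2 h). The libraries after 2 h were far apart in the second, and neither region passed the threshold.

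Presence of a peak was followed for regions that were missing from some lists. Of the 45 members with a peak in both 0 h lists, 6 (13.3%) had none in either list after 30 min, 7 (15.6%) after 1 h and 10 (22.2%) after 2 h, beside 10.9%, 14.6% and 16.6% of all such regions. New members, with a peak in both lists of a time point and in neither at 0 h, numbered 5 of 45 after 30 min, 4 of 40 after 1 h and 7 of 42 after 2 h (11.1%, 10% and 16.7%), beside 10.3%, 17% and 20.5% of all. These shares lie near the background, and most such regions were weak, so the ones with at least 20 fragments in a library are described.

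Of the lost regions, 3 strong ones lay in the long first intron of Ikzf1. The first (chr11:11689045-11689286) had 35 and 25 fragments at 0 h, at percentiles of 50.3 and 52.9, and no peak in any of the 6 treated lists. At the background found near it after 2 h, peaks with as few as 8 fragments were called in both lists. The second (chr11:11696045-11696235), 204 bp from the start site of the predicted gene Gm12000, had 40 and 28 fragments at 0 h (percentiles 75.3 and 72.7), 9 in 1 library after 30 min and no peak in the other 5 treated lists. The third (chr11:11694270-11694435) had 34 and 24 at 0 h, 20 and 12 after 30 min, 14 in 1 library after 1 h and no peak after 2 h. The first region was thus absent from the lists by 30 min, while the third was still in both lists at that time and in neither after 2 h. A region beside the third (chr11:11694059-11694176) appeared in the same period, with no peak at 0 h, 13 fragments in 1 library each after 30 min and 1 h, and 17 and 20 after 2 h.

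Outside Ikzf1, a region 276 bp from the start of Grb7, an adaptor protein gene next to Ikzf3 (chr11:98446207-98446558), had 25 and 19 fragments at 0 h and no peak in the treated lists. A region 384 bp from the start of Zpbp2, a sperm protein gene on the other side of Ikzf3 (chr11:98551562-98551755), had 34 and 27 fragments at 0 h, 22 and 15 after 30 min, 11 and 11 after 1 h and no peak after 2 h. Before Ikzf4, a region in an intron of Gm49782 (chr10:128653596-128653778) had 25 and 11 fragments at 0 h and no peak afterwards. The clearest gain lay in an intron of Ikzf3 (chr11:98525253-98525469). It had no peak at 0 h, 7 fragments in 1 library after 30 min, 18 and 11 after 1 h, and 25 and 15 after 2 h, with percentiles of 90.3 and 74.6 after 2 h. Its nearest peak at 0 h was 9.7 kb away. At the background found there, peaks with as few as 4 and 3 fragments were called in the 2 lists of 0 h.

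**Figure D4:**
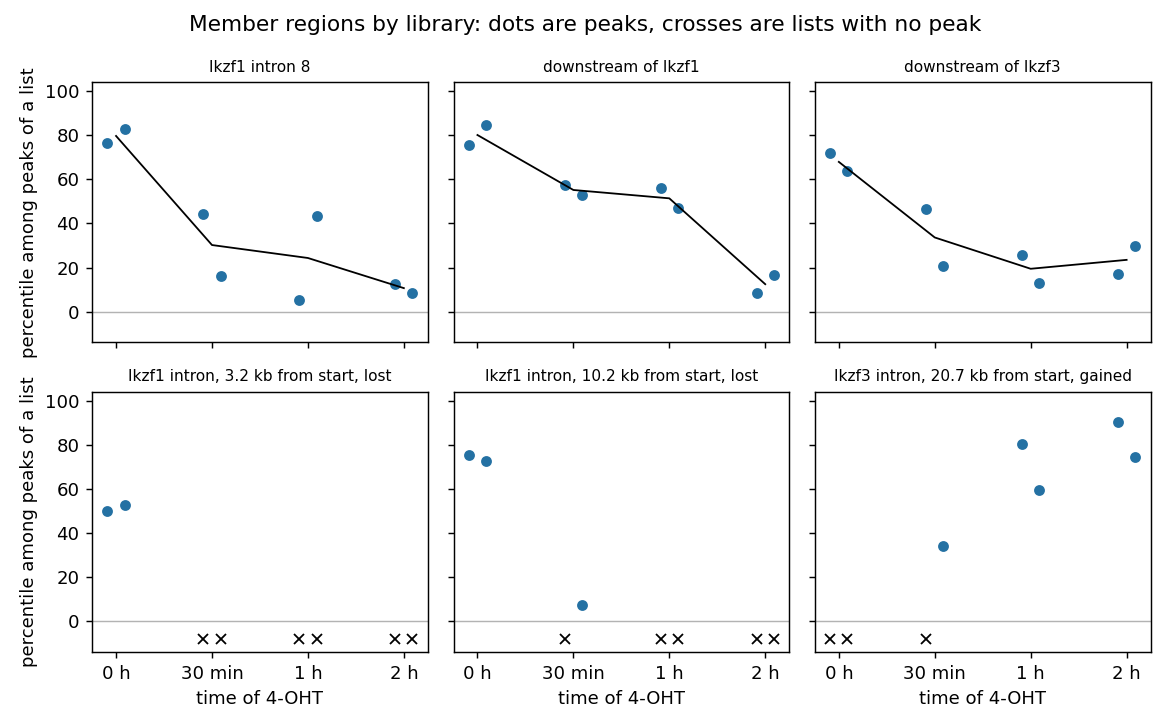
Percentile among the peaks of a list (y axis) of 6 member regions at each time of 4-OHT (x axis). Dots are libraries, lines join the means of 2 where all lists had a peak, and crosses below 0 are lists with no peak. The top row holds the 3 regions called lower, and the bottom row 2 regions lost from Ikzf1 and the region gained in Ikzf3, which reached 90.3 and 74.6 after 2 h.

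Sequences are shown for the 2 lost regions of Ikzf1 with the most fragments at 0 h and for both gained regions with at least 20 fragments in a library (200 bases around the summit, GRCm38, plus strand, core words in capitals).
Ikzf1 first intron, lost, chr11:11689016-11689215: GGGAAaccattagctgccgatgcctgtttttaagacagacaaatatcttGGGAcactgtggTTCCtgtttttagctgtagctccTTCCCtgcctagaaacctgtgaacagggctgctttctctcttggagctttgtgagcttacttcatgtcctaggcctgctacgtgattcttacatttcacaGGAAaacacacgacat
Ikzf1 near Gm12000, lost, chr11:11696034-11696233: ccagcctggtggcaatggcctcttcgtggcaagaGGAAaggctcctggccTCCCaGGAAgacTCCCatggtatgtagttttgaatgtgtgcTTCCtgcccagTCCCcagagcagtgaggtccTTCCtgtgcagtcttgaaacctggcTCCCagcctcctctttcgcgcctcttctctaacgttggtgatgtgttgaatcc
Ikzf3 intron, gained, chr11:98525243-98525442: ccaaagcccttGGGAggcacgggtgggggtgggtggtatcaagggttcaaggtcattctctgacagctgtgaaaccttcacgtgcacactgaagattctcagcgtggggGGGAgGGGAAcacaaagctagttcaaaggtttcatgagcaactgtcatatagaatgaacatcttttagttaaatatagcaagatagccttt
Ikzf1 first intron, gained, chr11:11694034-11694233: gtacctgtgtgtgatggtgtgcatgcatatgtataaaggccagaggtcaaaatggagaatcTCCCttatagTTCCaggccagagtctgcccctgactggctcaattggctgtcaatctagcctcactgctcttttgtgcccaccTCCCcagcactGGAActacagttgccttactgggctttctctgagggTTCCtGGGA
These lost regions held 7 and 8 core words and the gained ones 4 and 6. Over the 10 members lost after 2 h the median was 3.75 words per 100 bp, and over the 7 gained it was 1.5, beside 2 over all tested regions. The tested regions include no lost or gained ones. Among tested regions of the whole genome called after 2 h, the median was 3 for the 2256 lower and 1.5 for the 1092 higher.

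Core words were then set against the shift in rank of the tested members. Of the 7 with at least 3 words per 100 bp, 7 had a lower mean score after 2 h than at 0 h, with a median shift of −1.24. Of the other 23, 11 did, with a median shift of 0.08. Over all tested regions 67.6% of those with at least 3 words and 38.9% of the others had a lower score. Spearman's rho between words and shift was −0.51 over the 30 members, −0.55 over the 24 that were not exon-confined and −0.38 over all 47875 regions. All points share the same 8 libraries, regions are not replicates, and the members' values are those of a few neighbouring sites. The exon-confined regions held a median of 1.75 words per 100 bp.

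**Figure D5:**
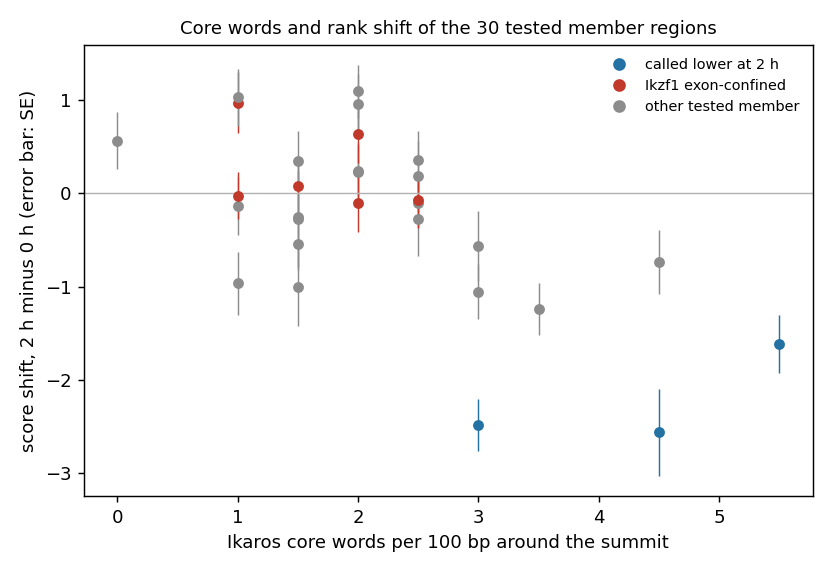
Score shift from 0 h to 2 h (y axis, error bars are SE) of the 30 tested member regions against the number of Ikaros core words per 100 bp around their summit (x axis). The 3 regions called lower (blue) had 3 to 5.5 words, all 7 members with at least 3 words lay below 0, and the exon-confined regions (red) had 1 to 2.5.

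Some other members lay at start sites or in introns of neighbouring genes. The member with the highest mean percentile of all (95.4) lay 5 bp from the start of Rps26, a ribosomal protein gene next to Ikzf4 (chr10:128626752-128626983). Its percentile was 99.2 and 98.0 at 0 h, 98.1 and 95.2 after 30 min, 95.6 and 94.8 after 1 h, and 94.6 and 87.5 after 2 h, so that both 2 h libraries lay below both 0 h libraries (limma adjusted p = 0.0329). A region over the start of Pstk, a kinase gene of selenocysteine synthesis beyond Ikzf5 (chr7:131370980-131371502), had percentiles of 76.6 and 81.3 at 0 h and 87.8 and 94.0 after 2 h (adjusted p = 0.22). Around Ikzf1 the highest mean percentile (93.2) was in an intron of the neighbour Fignl1 (chr11:11788785-11788984), and around Ikzf3, among regions in all lists, at the start of Zpbp2 (chr11:98550884-98551436, 65.5). Neither passed the threshold (adjusted p = 0.533 and 0.312 after 2 h).

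Genes for the partners of the family were examined in the same window. For the 14 subunit genes of NuRD, 79 regions were tested. After 2 h, 3 of them were higher and 0 lower. The 3 lay near Gatad2b, Gatad2a and Mta3 (3.8%, beside 2.28% of all regions). The Mta3 region, 187 bp from a start site (chr17:83705606-83705976), went from a mean percentile of 43.7 ± 7.38 at 0 h to 82.9 ± 3.3 after 30 min, 86.1 ± 1.19 after 1 h and 90.7 ± 0.65 after 2 h (SD, n = 2, limma adjusted p = 0.0023 after 2 h). For the 7 genes of other corepressors, 40 regions were tested, with 1 lower, near Ctbp2, and 2 higher, near Ctbp2 and Sin3a (2.5% and 5%, beside 4.71% and 2.28% of all). For the 5 subunit genes of the cereblon ligase, 19 were tested, with 1 lower, in the window of Ddb1 (chr19:10589003-10589639, mean percentile 98.1 ± 0.51 at 0 h and 78.5 ± 0.003 after 2 h, adjusted p = 0.00401), and 0 higher. That is 5.26% lower, beside 4.71% of all. Counts of 0 to 3 do not separate these lists from the background. The median score shift after 2 h was 0.01, 0.27 and −0.17 for the 3 lists, −0.10 for the family members and 0.06 over all tested regions.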

How the data were processed

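ATAC-seq of B3 cells was made by the authors at 4 time points. Per the labels the tools were BWA 0.7.17, SAMtools 1.9, bedtools 2.27.1, deepTools 2.3.5 and MACS2 2.1.2, and fragments from nucleosome-free DNA were kept after correction for the transposase offset. The deposited lists give for each peak of each library the fold over local background as a ratio, its p-value and q-value as −log10, and the summit offset, with no scaling between libraries and no control library. The methods name a human genome, but the positions of all 8 lists lie within GRCm38 chromosomes. Whole fragments at the summit were recovered from fold and −log10 p-value. Peaks that overlapped were merged into regions. Regions in all 8 lists were ranked within lists, and their normal scores were tested by limma 3.58.1 (R 4.3.3, 4 groups in 1 model, Benjamini-Hochberg over 47875 regions, threshold 0.01). The fit was also run on independent normal scores simulated with its own spreads, which cannot show how it behaves on these ranks. Sequences came from RefSeq GRCm38. Named regions were those at start sites, exon-confined, called, lost or gained with at least 20 fragments, and the highest of each gene; other regions were chosen after their values were seen. Members and lists were chosen with earlier results of these data known. Replicate numbers did not pair the libraries (correlation of deviations 0.017 to 0.04). 1 marker gene is not reported here.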

Additional observations from a re-analysis of the deposited data

How the results depend on the processing

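Depth limits single regions, since a median peak had 11 to 14 fragments, and 2 libraries a group leave the 3 calls close to the threshold. The 3 called members kept a negative shift in every alternative run that tested them, though several runs lost the call. None of the 3 was tested when peaks needed a −log10 q of at least 5. Of the 30 tested members, 8 had opposite signs at 2 h on ranks and on fragments over background, none of them called on ranks, and over all regions the larger of the lower and higher counts at 2 h turned on that scale (below). The causes of the changes below were not tested.

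Member counts moved as follows. Ranked among all peaks of a list, 0 members were lower at 1 h and 1 at 2 h, and after a minimum −log10 q of 5, 0 and 1. The 3 members called in the main run were not tested after that minimum, so the 1 lower at 2 h was not 1 of them. On fragments over background, centred or not, 3 were lower at 1 h and 1 higher at 2 h. At an adjusted p under 0.05 (limma), 1 was lower at 30 min, 4 lower and 1 higher at 1 h, and 5 lower and 2 higher at 2 h. With a mean trend and robust prior, 2 were lower and 1 higher at 1 h, and 3 were lower at 2 h. With regions in at least 6 lists, 1 was lower at 1 h and 3 at 2 h. The Ikzf3 region was not called at 2 h in the first of these runs, nor at either time in the second. Their counts there equal those of the main run, so each included a member that the main run did not call at that time. Leaving out 1 library gave 0 to 1 lower at 1 h, 0 to 3 lower at 2 h (0 without the second 0 h or the first 2 h library), and 0 to 0 higher or at 30 min. Lost members numbered 11 to 13 and gained ones 7 to 14 without 1 library, and 4 were gained after a minimum −log10 q of 5. The mean percentile shift of the exon-confined regions at 2 h was 7.32, 3.97 to 10.7 without 1 library and 3.42 when wholly exonic regions alone were kept. That of other members was −5.42, −8 to −2.84 without 1 library and −0.56 after that minimum.

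Over all tested regions, lower and higher calls at 30 min, 1 h and 2 h were as follows. On fragments over background they were 608 and 147, 2468 and 2038, and 3423 and 3772. Centred, they were 622 and 154, 3165 and 1664, and 4487 and 2601. At an adjusted p under 0.05 they were 712 and 336, 3915 and 2746, and 5300 and 3993. With a mean trend and robust prior, 209 and 157 at 30 min, 2121 and 1486 at 1 h and 2256 higher at 2 h were called. Ranked among all peaks, 489 were lower at 1 h and 1305 at 2 h. After a minimum −log10 q of 5, 65 and 16 were called at 30 min, and with regions in at least 6 lists 1675 were higher at 2 h. Without 1 library, 0 to 985 were lower and 0 to 393 higher at 1 h, 182 to 1951 lower and 17 to 893 higher at 2 h, and 0 at 30 min.

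With the replicate number as a block, 342 regions were higher at 1 h and the Ikzf3 region had an adjusted p of 0.0107 at 2 h (limma). The block changed no other call of a member.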
